A study of Homo sapiens with 8 samples.

Results

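The integrated stress response genes described here are 10 genes of the axis that runs from the transcription factor ATF4 to the transcription factor CHOP: DDIT3 (which encodes CHOP), ATF4, ATF3, ATF5, TRIB3, CHAC1, ASNS, SESN2, PSAT1 and PPP1R15A. They were taken by symbol from the 54174 symbols of the deposited table, and all 10 had a value in all 8 libraries. The genes were chosen by the log2 values of these control and knockout libraries, with replicates 1 and 2 seen apart from replicates 3 and 4. The differences of the 10 genes between those libraries are therefore given as a description, with no test. RNA came from 143B, an established human osteosarcoma cell line, in 2 groups of 4 biological replicates. The control group was transfected with the vector plasmid and the other group with a NELL1 knockout plasmid, and RNA of both was taken after 48 h. Cells of both groups went through the same transient transfection (TransIT-LT1 reagent), and a selection of transfected cells or a clone is not described in the sources used here, so each library can hold untransfected cells.

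The integrated stress response is a switch of translation. Kinases that sense misfolded protein in the endoplasmic reticulum, lack of amino acids, haem deficiency or double-stranded RNA phosphorylate the initiation factor eIF2, which lowers general translation and favours that of a few messengers with upstream open reading frames, ATF4 among them. ATF4 then turns on genes of amino acid supply, tRNA charging and redox balance and, when the stress lasts, DDIT3, whose product CHOP is known for its part in stress-induced cell death. Secretory cells such as those of the osteoblast lineage, which make and export much collagen, are known to use this pathway in normal differentiation.

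Values are on the deposited log scale, whose base is not stated and was taken as 2 from its range, so that a difference of 1 is a change of 2-fold. All libraries share 1 distribution of values, as after quantile normalization, so each value is relative to the other genes of its library and not to the number of cells. The sequencing depth is unknown. NELL1 itself lay near the bottom of the scale in both groups, between -6.97 and -4.53 in the controls and between -6.96 and -4.82 in the 3 knockout libraries with a value, so that its level does not check the labels. The fit described further on held the 9016 genes that were measured in every library and averaged at least 1. Over them, the SD of the difference between knockout libraries 1 and 2, and between knockout libraries 3 and 4, was 0.12 to 0.13. Between those pairs it was 0.46 to 0.50, larger than between a control and a knockout library (0.36 to 0.45). The knockout libraries thus fall into 2 close pairs, and each result is given for all libraries and for replicates 1-2 and 3-4 apart. The labels do not say what the members of a pair share. Of the markers of the cell line's lineage, VIM (10.2 to 10.9), SPARC (5.23 to 6.15), TWIST1 (1.93 to 2.35), RUNX2 (0.05 to 0.43), COL1A1 (-1.45 to 0.90) and ALPL (-1.75 to -0.34) had a value in every library, the last 2 near or below 0, whereas SP7 was blank throughout and COL1A2 and BGLAP were blank in part. PTPRC and CD3E of leukocytes were blank in all libraries, and PECAM1, CDH5 and VWF of endothelium were below -3 wherever they had a value. CD68, a lysosomal protein of many cells, stood between 5.54 and 5.90. EPCAM of epithelium stood between 1.83 and 2.76, while CDH1, KRT5 and KRT14 were blank or below -6.

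The promoters show how the 10 genes differ in the sequence next to their start. The motifs searched on both strands were the C/EBP-ATF response element TGATGNAA, to which ATF4 and its C/EBP partners bind, the cyclic AMP response element TGACGTCA of the ATF and CREB factors, and the endoplasmic reticulum stress element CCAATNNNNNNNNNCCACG. None of the 3 contains another. All 10 genes matched a RefSeq promoter, and 3 of the 10 (ASNS, ATF3 and CHAC1) held the first motif within 250 bases upstream of an annotated start. It is found in 3.89% of the 27305 genes with such a promoter, and in 3.14% of the 35116 promoter windows of that length, as some genes have several. One, PPP1R15A, held the second, which is in 2.03% of the genes and 1.65% of the windows, and none held the third (0.0916% of the genes and 0.074% of the windows). The 4 windows below are DDIT3, the member with the largest difference, and the motif-bearing windows of CHAC1, ASNS and PPP1R15A. They run 5′ to 3′ on the strand of the gene and end at the base before the start (RefSeq, GRCh38.p14), with the motif in capitals. They lie at chr12:57520515-57520764 (minus strand), chr15:40953221-40953470 (plus), chr7:97872409-97872658 (minus) and chr19:48872171-48872420 (plus).
DDIT3: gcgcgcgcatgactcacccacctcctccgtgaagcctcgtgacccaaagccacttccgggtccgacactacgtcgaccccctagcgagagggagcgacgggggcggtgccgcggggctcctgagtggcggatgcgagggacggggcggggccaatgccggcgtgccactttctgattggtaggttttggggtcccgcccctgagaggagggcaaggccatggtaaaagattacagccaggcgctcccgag
CHAC1: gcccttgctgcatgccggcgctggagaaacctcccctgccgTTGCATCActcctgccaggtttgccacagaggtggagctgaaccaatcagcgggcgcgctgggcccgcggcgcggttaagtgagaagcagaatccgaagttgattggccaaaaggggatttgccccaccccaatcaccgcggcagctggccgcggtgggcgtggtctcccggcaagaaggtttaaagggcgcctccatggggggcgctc
ASNS: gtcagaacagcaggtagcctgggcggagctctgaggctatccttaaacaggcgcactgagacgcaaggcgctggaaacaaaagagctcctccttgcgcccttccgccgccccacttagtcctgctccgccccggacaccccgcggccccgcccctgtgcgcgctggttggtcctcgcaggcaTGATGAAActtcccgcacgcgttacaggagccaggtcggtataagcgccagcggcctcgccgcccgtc
PPP1R15A: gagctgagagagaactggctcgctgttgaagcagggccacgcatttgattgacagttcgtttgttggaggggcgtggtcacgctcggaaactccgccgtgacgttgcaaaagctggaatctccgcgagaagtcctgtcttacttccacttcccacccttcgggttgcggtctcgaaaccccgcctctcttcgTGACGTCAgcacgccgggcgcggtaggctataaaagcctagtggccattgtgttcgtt
The ASNS match TGATGAAA starts 68 bases before the start, the CHAC1 match TTGCATCA (the motif on the other strand) 209 bases before it and the PPP1R15A match TGACGTCA 58 bases before it. In the DDIT3 window none of the 3 motifs was found, which says only that these letters are not in this window. A match is a description of the letters, not a measured binding site.

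The transcription factors were read first. DDIT3 (chromosome 12, 57516588 to 57520517, minus strand, GRCh38.p14) measured 5.54, 5.57, 4.26 and 5.20 in control libraries 1 to 4 and 5.89, 5.84, 1.55 and 1.54 in knockout libraries 1 to 4. Knockout libraries 1 and 2 were above every control, and knockout libraries 3 and 4 were 2.71 or more below the lowest control. Against the controls of the same replicate numbers the difference was 0.31 in replicates 1-2 and -3.18 in replicates 3-4, the latter 9.06-fold lower on a linear scale. Of the 9016 genes in the fit, 0 had a lower difference than DDIT3 in replicates 3-4. Pooled over all 8 libraries, the difference was -1.44 ± 1.07 (SE), with an SD of 2.49 among the 4 knockout libraries against 0.61 among the 4 controls. Since these are bulk libraries, fewer cells with the transcript and less transcript per cell cannot be told apart.

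ATF4 (chromosome 22, 39520559 to 39522686, plus strand), the factor whose translation the pathway turns up, measured 6.26, 6.32, 6.28 and 6.35 in the controls and 6.18, 6.22, 5.50 and 5.51 in the knockouts. It was the only one of the 10 genes whose groups did not overlap, a state found in 22.9% of the tested genes. The controls lay within 0.09 of each other, and knockout libraries 1 and 2 were just beneath them. Its difference was -0.09 in replicates 1-2 and -0.81 in replicates 3-4. These values are of the ATF4 transcript, and say nothing of how much of it was translated.

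ATF3 (chromosome 1, 212565407 to 212620777, plus strand), a stress-induced factor that acts beside ATF4, showed another pattern. It measured 0.51, 0.60, 0.72 and 0.74 in the controls and 1.59, 1.72, 0.63 and 0.49 in the knockouts. Knockout libraries 1 and 2 stood above every control, with a difference of 1.10 in replicates 1-2, and knockout libraries 3 and 4 stayed near the control range, with a difference of -0.17. ATF5 (chromosome 19, 49928906 to 49933935, plus strand), a factor controlled at translation like ATF4, measured -0.03, -0.23, 0.51 and 0.40 in the controls and 0.28, 0.33, -0.0013 and 0.35 in the knockouts. All knockout values of ATF5 lay inside the control range. ATF3 and ATF5, with means under 1, were not in the fit, which held the other 8 genes.

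**Figure D1:**
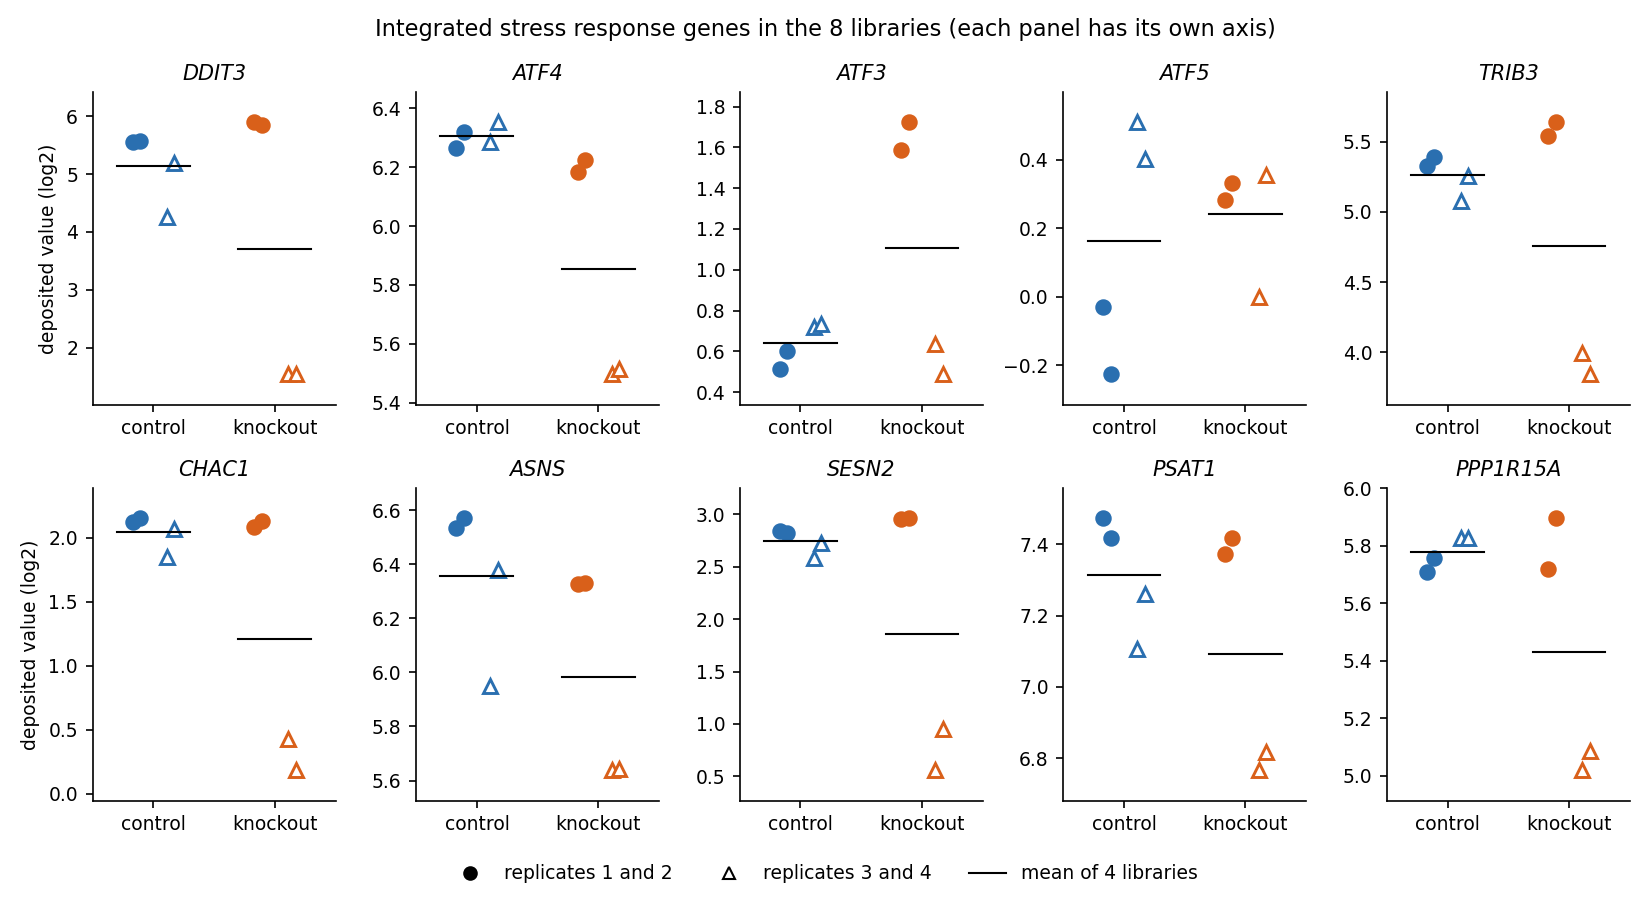
Deposited log2 values (vertical axes, one scale per panel) of the 10 genes in the control (blue) and knockout (orange) libraries, with filled circles for replicates 1 and 2, open triangles for replicates 3 and 4 and a line at each group's mean of 4 libraries. Knockout libraries 3 and 4 lie below every control in 8 of the 10 panels, and in ATF3 knockout libraries 1 and 2 stand alone above the rest.

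Among the targets that act on stress signalling, SESN2, CHAC1 and TRIB3 had the largest differences after DDIT3 in replicates 3-4. SESN2 (chromosome 1, 28259518 to 28282491, plus strand) encodes sestrin 2, which restrains the growth kinase mTORC1 when leucine is short. SESN2 measured 2.84, 2.82, 2.58 and 2.73 in the controls and 2.96, 2.96, 0.56 and 0.95 in the knockouts. Knockout libraries 1 and 2 were above every control, by little, and knockout libraries 3 and 4 were below every control by 1.63 or more. The SESN2 difference was 0.13 in replicates 1-2 and -1.90 in replicates 3-4, a 3.73-fold lower value.

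CHAC1 (chromosome 15, 40953471 to 40956512, plus strand), an enzyme that breaks down glutathione, measured 2.12, 2.15, 1.85 and 2.06 in the controls and 2.09, 2.13, 0.43 and 0.18 in the knockouts. In replicates 1-2 the knockout values were at the control level (difference -0.03), and in replicates 3-4 they were 3.14-fold lower (difference -1.65). TRIB3 (chromosome 20, 380760 to 397559, plus strand) encodes a pseudokinase that is induced by ATF4 and CHOP and feeds back on them. TRIB3 measured 5.33, 5.39, 5.07 and 5.26 in the controls and 5.54, 5.64, 3.99 and 3.84 in the knockouts. As in DDIT3 and SESN2, knockout libraries 1 and 2 were above every control (difference 0.23 in replicates 1-2) and knockout libraries 3 and 4 below every control (difference -1.25 in replicates 3-4).

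PPP1R15A (chromosome 19, 48872421 to 48876058, plus strand) encodes GADD34, the phosphatase subunit that takes the phosphate off eIF2 and so ends the response. It measured 5.71, 5.76, 5.83 and 5.83 in the controls and 5.72, 5.90, 5.02 and 5.09 in the knockouts. Knockout library 1 lay inside the control range, which spanned 0.12, and knockout library 2 was above every control. The PPP1R15A difference was 0.08 in replicates 1-2 and -0.77 in replicates 3-4.

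The members of amino acid synthesis had the smallest differences of the 8 fitted genes in replicates 3-4. ASNS (chromosome 7, 97851677 to 97928441, minus strand), asparagine synthetase, measured 6.53, 6.57, 5.95 and 6.38 in the controls and 6.33, 6.33, 5.64 and 5.64 in the knockouts. Its differences were -0.22 in replicates 1-2 and -0.52 in replicates 3-4, less than the range of 0.62 among the controls. PSAT1 (chromosome 9, 78297125 to 78330093, plus strand), which catalyses the second step of serine synthesis, measured 7.47, 7.42, 7.11 and 7.26 in the controls and 7.37, 7.42, 6.77 and 6.82 in the knockouts. The PSAT1 difference was -0.05 in replicates 1-2 and -0.39 in replicates 3-4, about the size of the range of 0.37 among the controls. The pseudogenes named after ATF4, ASNS and PSAT1 were blank in all libraries, and whether reads of these genes were shared with such copies is not given in the sources used here.

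Across the 10 genes, knockout libraries 3 and 4 were both below every control in 8, against 25.9% of the 13943 genes measured in every library, and the exceptions were ATF3 and ATF5. Knockout libraries 1 and 2 were both above every control in 4 genes (DDIT3, ATF3, TRIB3 and SESN2), against 29.5% of all genes, and both below every control in 1, ATF4. By sign alone, 6 genes were higher in replicates 1-2 and lower in replicates 3-4 (24.3% of all genes), and 4 genes (ATF4, CHAC1, ASNS and PSAT1) were lower in both (25.1% of all genes). The median difference of the 8 fitted genes was 0.02 in replicates 1-2 and -1.03 in replicates 3-4, where the medians of all tested genes were 0.03 and -0.0021. Nothing is read from these shares, since the genes were listed with the same values in view. Within a close pair the knockout libraries differed by 0.0028 to 0.18 (libraries 1 and 2) and by 0.0048 to 0.39 (libraries 3 and 4) in these genes.

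**Figure D2:**
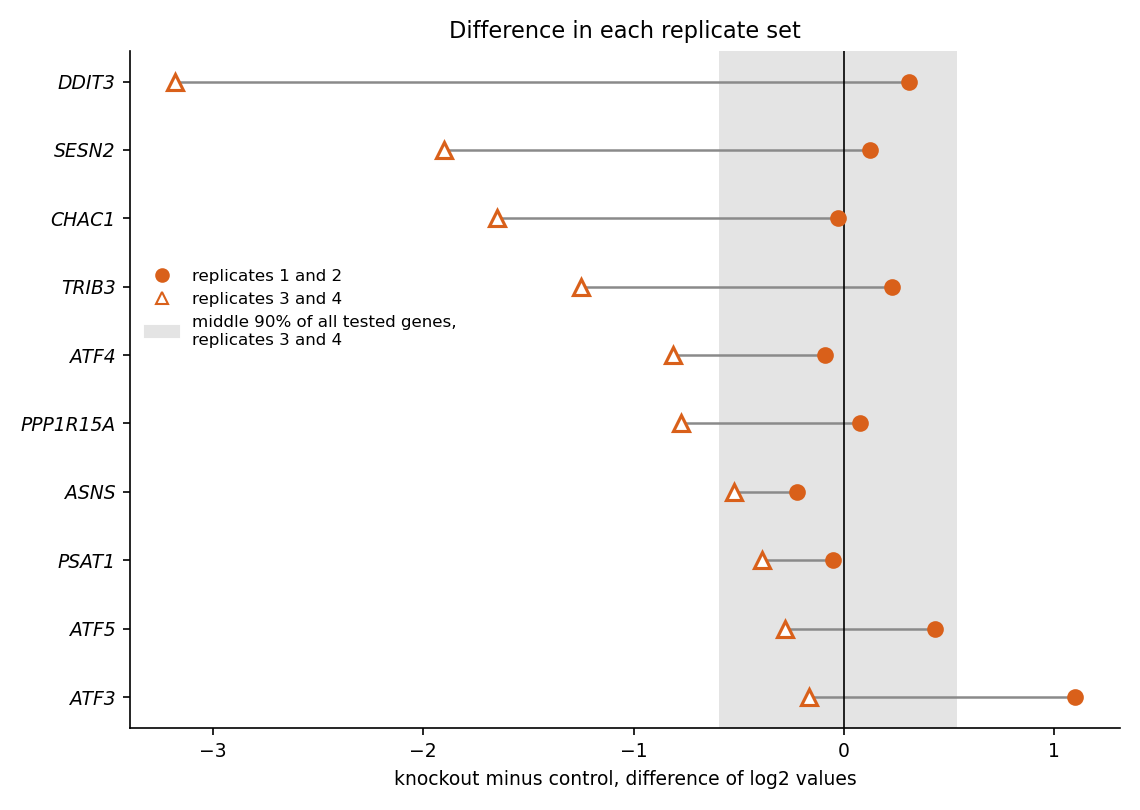
Difference of log2 values, knockout minus control of the same replicate set (horizontal axis), for each of the 10 genes, with filled circles for replicates 1-2, open triangles for replicates 3-4 and a grey band for the middle 90% of all tested genes in replicates 3-4 (-0.59 to 0.54). The triangles of DDIT3, SESN2, CHAC1, TRIB3, ATF4 and PPP1R15A lie left of the band, and the circles of all genes but ATF3 lie inside it.

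The controls themselves were not level. Control library 3 was the lowest control in 6 of the 10 genes (DDIT3, TRIB3, CHAC1, ASNS, SESN2 and PSAT1), which holds for 36.5% of all genes, and control library 4 was the next lowest in each of the 6. In DDIT3 the controls spanned 1.31, the widest control range of the 10 genes. The part of whatever the replicate numbers 3 and 4 share in the differences of replicates 3-4 was not tested.

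DDIT3 has a neighbour on the other strand. In GENCODE 29, 355 of its 1307 exonic bases also lie in exons of MARS1 (annotated there as MARS), the methionyl-tRNA synthetase gene, and 58 in exons of MBD6. The library kit was stranded, but whether strand was used in counting is not given in the sources used here, so reads in the shared bases cannot be told apart. MARS1 measured 6.28, 6.29, 6.36 and 6.32 in the controls and 5.80, 5.90, 6.04 and 6.01 in the knockouts, lower in all 4 knockout libraries and lowest in libraries 1 and 2, where DDIT3 was highest. MBD6 ranged from -0.75 to 0.09. ATF5 shares 626 of its 2954 exonic bases with NUP62 (3.49 to 4.13) and 75 with IL4I1 (-5.56 to -2.35) in the same way.

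The 3 genes of the fit whose profiles over the 8 libraries were nearest to that of DDIT3, by the root-mean-square difference of deviations from each gene's own mean, were CLGN (0.49), OSCAR (0.80) and THBD (0.80), where the median over 9015 genes was 1.74. CLGN, which encodes the chaperone calmegin of the endoplasmic reticulum, measured 3.25, 3.15, 2.09 and 2.92 in the controls and 3.38, 3.41, 0.39 and 0.20 in the knockouts. It shared with DDIT3 the low control library 3 and the lowest values in knockout libraries 3 and 4. OSCAR, an immunoglobulin-like receptor known from osteoclasts, had a difference of -0.52 in replicates 1-2 and -2.11 in replicates 3-4, and THBD, thrombomodulin, measured 1.56 to 1.75 in the controls, 3.09 and 3.08 in knockout libraries 1 and 2 and -0.14 and -0.36 in knockout libraries 3 and 4. The nearest of the 10 genes was SESN2, at 0.86, followed by CHAC1 at 0.98 and TRIB3 at 1.09. This measure depends on the size of a gene's changes as well as their shape.

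The rest of the pathway was read from 6 lists with 101 further genes, of which 96 were in the fit. The lists were chosen with earlier results of these data known, so their counts are a description beside the shares of all tested genes. CEBPA, BCL2L11 and ERN1 had a mean under 1, and NUPR1 and FGF21 were also blank in some libraries. Over all 8 libraries, 16 of the 96 genes (16.7%) were lower in the knockouts and 0 were higher at a Benjamini-Hochberg adjusted p-value under 0.05 in the limma fit, where 6.1% of all tested genes were called lower and 7.02% higher, 13.1% in all. At an unadjusted p-value under 0.05 the limma fit held 40 of the 96, 6 of them higher, beside 29.7% of all tested genes. The control and knockout values of all 16 did not overlap, a state found in 22.9% of all tested genes. Each of the 16 was also called lower in replicates 1-2 alone and in replicates 3-4 alone. As the 16 were picked by their values in these same libraries, that choice favours both states, and neither is a replication. The shares of both states among all called genes were not counted, so nothing is read from them. Fitted within replicates 1-2 alone, 37 of the 96 were lower and 17 higher, where 26.6% of all genes were called lower and 33.0% higher, 59.7% in all. Within replicates 3-4 alone, 41 were lower and 2 higher, where 17.4% of all genes were called lower and 33.1% in either direction. Each of these fits uses 2 libraries a group, whose spread may be technical. The median difference of the 96 genes was -0.18, beside 0.01 for all tested genes. The count was 9 without control library 1 or without control library 2, 6 without control library 4, and 2 (SARS1 and JUNB) when each close pair of knockout libraries was averaged to 1 library.

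Aminoacyl-tRNA synthetases, which load amino acids onto tRNAs and are known targets of ATF4, gave the largest share. Of 14 genes for tRNA charging, 5 fell (35.7%, beside 6.1% of all tested genes), 0 rose and 9 did not pass. The median difference of the 14 was -0.27. SARS1, the seryl-tRNA synthetase, was 8.17, 8.15, 8.25 and 8.20 in the controls and 7.45, 7.53, 7.17 and 7.21 in the knockouts, a fall with no overlap between the groups. Its difference was -0.85 ± 0.09 (SE; limma adjusted p = 0.00175), -0.67 in replicates 1-2 and -1.04 in replicates 3-4. CARS1 fell by 0.48 (limma adjusted p = 0.0276). GARS1, IARS1 and MARS1 fell by 0.47, 0.43 and 0.38 (limma adjusted p = 0.00992, 0.00663 and 0.0131). Within replicates 3-4 alone, 12 of the 14 were called lower, against 17.4% of all genes.

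Among the partner factors, which bind DNA together with ATF4 or CHOP as basic leucine zipper proteins, 2 of 11 fell and 0 rose. The 2 are 18.2% of the list, beside 6.1% called lower among all tested genes. JUNB, an AP-1 subunit, measured 4.35, 4.40, 4.21 and 4.39 in the controls and 3.62, 3.63, 3.61 and 3.65 in the knockouts, so that all knockout libraries were low to the same degree. Its difference was -0.71 ± 0.06 (SE; limma adjusted p = 0.00117). CEBPG, the C/EBP factor that pairs with ATF4, fell by 0.65 (limma adjusted p = 0.0128), with -0.47 in replicates 1-2 and -0.84 in replicates 3-4. CEBPB, another partner of both factors, was not called over all libraries: its difference was -0.12 in replicates 1-2 and -1.19 in replicates 3-4.

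Genes of amino acid and one-carbon supply gave 3 falls and 0 rises among 21 (14.3% lower, beside 6.1% of all tested genes). ALDH1L2, a mitochondrial folate enzyme, fell by 0.84 (SE 0.17; limma adjusted p = 0.0171). SLC7A5, the large neutral amino acid transporter, fell by 0.43 and CBS, of cysteine synthesis, fell by 0.38 (limma adjusted p = 0.0191 and 0.0145). PHGDH, the first enzyme of the serine pathway to which PSAT1 belongs, had a difference of -1.07 in replicates 1-2 and 0.01 in replicates 3-4, the reverse order of the sets seen in PSAT1.

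Of 15 stress effectors downstream of ATF4 or CHOP, 3 fell and 0 rose. Among all tested genes, 6.1% were called lower and 7.02% higher. BBC3, which encodes the death protein PUMA, fell by 0.74 (SE 0.17; limma adjusted p = 0.0258). KLHL24 and TNFRSF10B, the latter the death receptor DR5 and a known CHOP target, fell by 0.48 and 0.36 (limma adjusted p = 0.0215 and 0.0103). Among 18 genes of the eIF2 arm, 2 fell (11.1%, beside 6.1% of all tested genes). EIF2AK3, the kinase PERK of the endoplasmic reticulum, fell by 0.29 (limma adjusted p = 0.0187). PPP1R15B, the constitutive counterpart of PPP1R15A, fell by 0.27 (limma adjusted p = 0.0416). In the paired fit, blocked by replicate number, the limma adjusted p-values of EIF2AK3 and PPP1R15B were 0.0536 and 0.0859. The other branches of endoplasmic reticulum stress gave 1 fall among 17 (5.88%, beside 6.1% of all tested genes), in SYVN1, a ubiquitin ligase of the degradation of misfolded proteins, by 0.31 (limma adjusted p = 0.0269). HSPA5, the chaperone BiP whose level is the usual gauge of that stress, measured 8.85, 8.83, 8.28 and 8.72 in the controls and 8.85, 8.86, 8.08 and 8.91 in the knockouts. Knockout library 3 was below every control and knockout libraries 2 and 4 were above, so that libraries 3 and 4, a close pair over all genes, stood 0.83 apart in HSPA5. Its mean difference was 0.00 ± 0.21 (SE; limma adjusted p = 0.993).

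**Figure D3:**
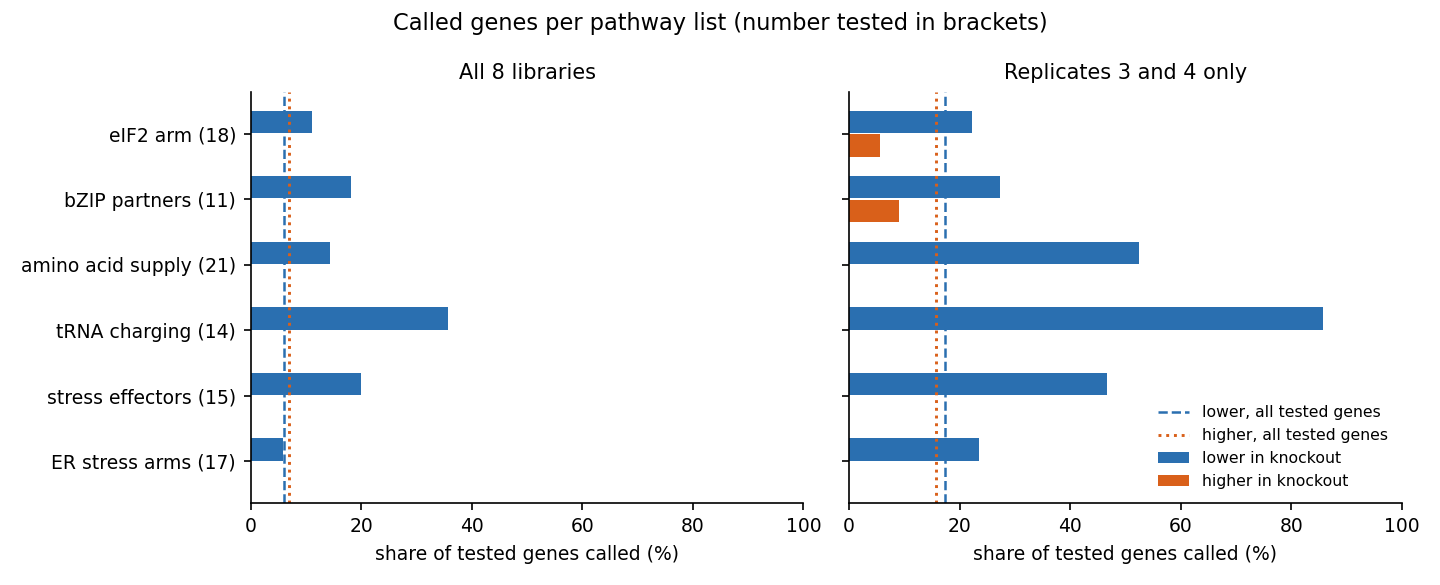
Share of the tested genes of each pathway list called lower (blue bars) or higher (orange bars) in the knockouts by the limma fit, over all 8 libraries (left) and in replicates 3-4 only (right), with the shares of all tested genes as dashed (lower) and dotted (higher) lines. The tRNA charging list reaches 35.7% on the left and 85.7% on the right, and no list has a called rise on the left.

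The change of 39 of the 96 genes differed between the replicate sets by the interaction term of group and set in limma (40.6%, beside 41.3% of all tested genes), 28 of them lower and 11 higher in replicates 3-4 than in replicates 1-2. The share of the pathway in both directions together lies at the background. By direction, the 28 lower genes are 29.2% of the 96, beside 22.9% of all tested genes. The 11 higher genes stand beside 18.4% of all tested genes. Nothing is read from these shares, as the lists were chosen with earlier results of these data known. The error of this fit is the spread between the 2 libraries of each group and set. That spread may be technical, so the SEs and p-values of the set differences do not show how far a set difference would repeat. Among the genes that passed, those with the 2 largest set differences in each list are given, in 1 direction at a time. The choice was made after the values were seen. DDIT4, an inhibitor of mTORC1, had a difference of -0.71 in replicates 1-2 and -1.99 in replicates 3-4, a set difference of -1.29 ± 0.21 (SE; limma adjusted p = 0.00170). DNAJB9, a co-chaperone of BiP, had differences of -0.04 and -1.56, a set difference of -1.53 ± 0.12 (SE; limma adjusted p = 6.95e-05). CTH, which makes cysteine from cystathionine, went from 0.22 to -1.13, a set difference of -1.35 ± 0.11 (SE; limma adjusted p = 6.95e-05).

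GDF15, a secreted stress hormone, differed by 1.38 in replicates 1-2 and by -0.06 in replicates 3-4, so that its set difference of -1.44 ± 0.09 (SE; limma adjusted p = 3.79e-05) came from high knockout libraries 1 and 2, as in ATF3. EIF2B3, a subunit of the exchange factor of eIF2, likewise differed by 0.61 and 0.01. In the other direction, PHGDH had a set difference of 1.08 ± 0.11 (SE; limma adjusted p = 1.87e-04), EDEM1, of the degradation of misfolded glycoproteins, one of 0.63, and EIF2AK4, the amino acid sensor GCN2, one of 0.59 with a difference of 0.59 in replicates 3-4 and 0.000070 in replicates 1-2. FOS, an AP-1 subunit, varied most among the controls of these genes, from 2.15 and 2.29 in control libraries 1 and 2 to 5.17 and 3.97 in control libraries 3 and 4.

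**Figure D4:**
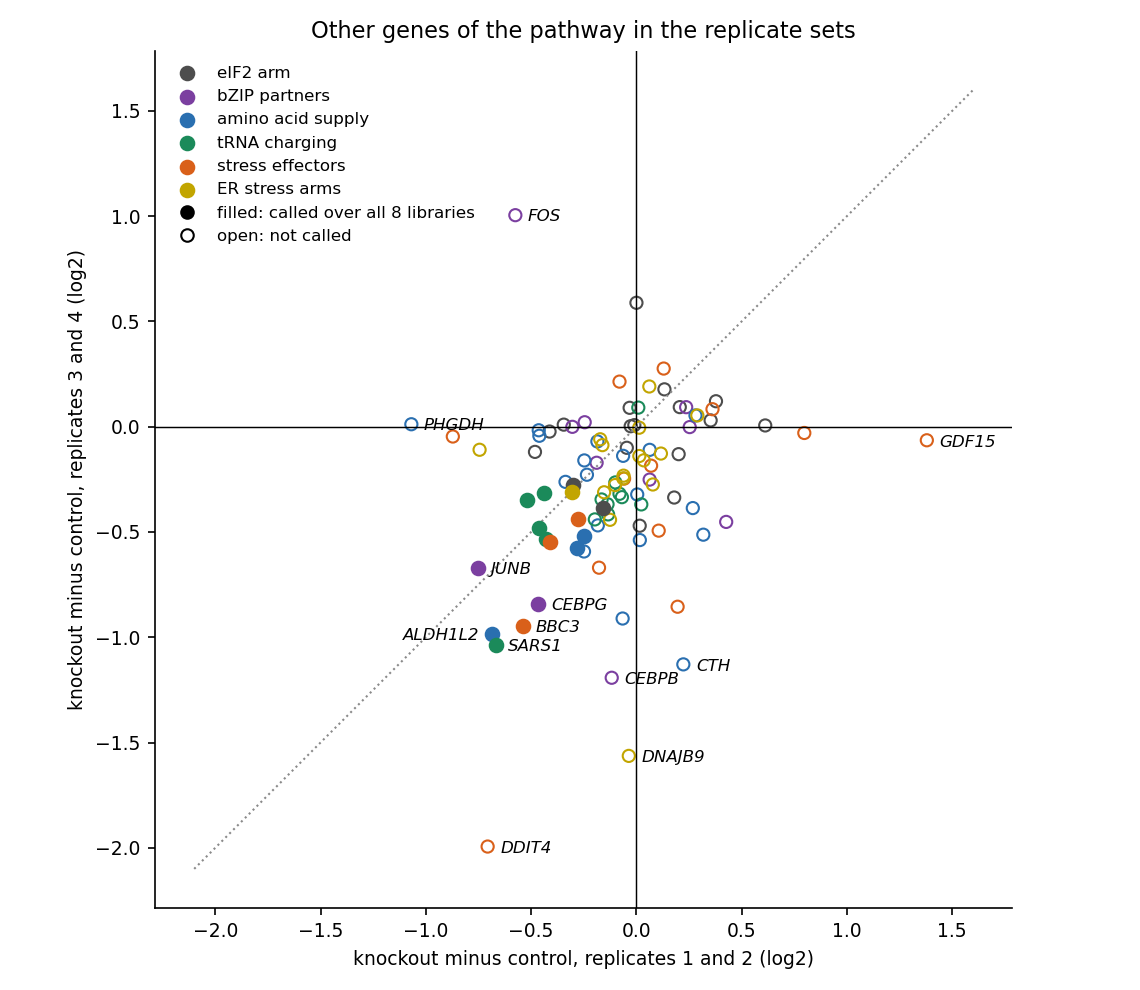
Difference of log2 values, knockout minus control, in replicates 1-2 (horizontal axis) and in replicates 3-4 (vertical axis) for the 96 other pathway genes, coloured by list, filled where called over all 8 libraries and open otherwise, with a dotted line where both sets are equal. The 16 filled points all lie at lower left, where both sets are lower, and DDIT4, DNAJB9, CEBPB and CTH lie far down with differences of -1.99 to -1.13 in replicates 3-4.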

How the data were processed

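Total RNA of 143B cells was extracted with TRIzol and made into libraries with the Illumina TruSeq Stranded Total RNA kit, per the labels' protocols. The submitters' processing notes name bcl2fastq, Partek 7.0 and GRCh38; aligner, counter, annotation and the rule for blank cells are not given in the sources used here. The deposited table holds 1 log2 value per symbol and library, and was quantile normalized as far as the values show, since all columns share 1 distribution (range -10.5 to 12.1, from which base 2 was taken). It gives no counts, so depth is unknown, and blanks were treated as missing.

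The difference, knockout minus control, was estimated for the 9016 genes measured in 8 libraries with a mean of at least 1, by limma 3.58.1 (R 4.3.3, no trend), with Benjamini-Hochberg adjustment over all of them and a threshold of 0.05. The fit was tested on simulated data with independent libraries. Those hold no close pairs of knockout libraries, so that test does not show how the fit behaves with them. A term for replicates 1-2 against 3-4 with its interaction was added after the values were seen. Differences of ATF3 and ATF5 are plain means. The 10 genes and the 6 lists were chosen with earlier results of these data known, so a planned count of limma calls among the 10 is left out. By rule, up to 2 called rises and 2 called falls of each list, the largest in log2, were named; CBS, GARS1, IARS1, TNFRSF10B and HSPA5 and the genes of the replicate sets were added after their values were seen. The numbers 1 to 4 are not said to mark a shared day. Deviations from the group means correlated across genes at 0.20 to 0.29 between control and knockout libraries of the same number (4 of 4 over 0.1), and at 0.11 to 0.31 between those of different numbers within replicates 1-2 or 3-4. The correlation thus follows the sets, not the single numbers. As every same-numbered pair passed 0.1, the fit with the number as a block is given where it changes a call. Alternatives were other filters, scalings, variance models, thresholds and subsets of libraries.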

Additional observations from a re-analysis of the deposited data

Results flagged for a closer look

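Among the 10 genes, 5 moved in opposite directions in the replicate sets, with both knockout libraries above both controls in replicates 1-2 and both below in replicates 3-4. The difference in replicates 3-4 minus that in replicates 1-2 was -3.49 for DDIT3, -2.03 for SESN2, -1.48 for TRIB3, -1.26 for ATF3 and -0.72 for ATF5. In ATF5 the controls shifted more between the sets (means -0.13 and 0.46) than the knockouts (0.31 and 0.18). In ATF3 the difference in replicates 3-4 was small (-0.17). The share of all genes that meet this rule was not counted, so nothing is read from the 5. By sign alone, 24.3% of the genes measured in every library were higher in replicates 1-2 and lower in replicates 3-4, and 6 of the 10 genes were. As the 10 genes were listed with these values in view, the difference between the sets was not tested for them.

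The 12 other pathway genes named for the sets were picked among those that passed by the interaction of group and replicate set in limma. That all 12 passed is therefore no result. The spread in that fit, between 2 libraries of each group and set, may be technical. The change was lower in replicates 3-4 for DNAJB9 (-1.53), GDF15 (-1.44), CTH (-1.35), DDIT4 (-1.29), CEBPB (-1.08), EIF2B3 (-0.61), XPOT (-0.39) and SARS1 (-0.37). It was higher for FOS (1.58), PHGDH (1.08), EDEM1 (0.63) and EIF2AK4 (0.59). FOS was the least stable of these, with a limma adjusted p of 0.0269 that became 0.100 with no filter on low values and 0.115 with a variance trend. The EIF2AK4 value of control library 4 (4.13) and the GARS1 value of control library 3 (7.07) lay apart from the other 3 controls by Dixon's test, which by chance marks about 1 in 20 groups.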

How the results depend on the processing

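The count of called genes among the other pathway genes, 16, became 32 with a batch term for replicates 1-2 and 3-4, 2 with close knockout pairs averaged, 54 in replicates 1-2 only, 43 in replicates 3-4 only, 4 at an adjusted p under 0.01 and 0 with an absolute log2 difference of at least 1. Leaving out 1 library gave 6 to 18. With a replicate block, the paired count was 15, and EIF2AK3 and PPP1R15B were the named genes whose call it changed. PPP1R15B also lost its call with no filter on low values. The same held in each fit that left out 1 library (limma adjusted p of 0.0526 to 0.127), except that without knockout library 1 (limma adjusted p = 0.0465). PPP1R15B was not alone in this. Of the 16 called genes, 7 lost their call without control library 1, 7 without control library 2 and 10 without control library 4. Without knockout library 3, 5 lost it. Leaving out 1 library gave 26 to 56 other pathway genes (39 with all) that differed between the replicate sets. No named difference that was called changed sign. In the averaged fit 14 of the 16 called pathway genes lost their call, where only 2 knockout libraries remain. Without counts, what depth limits cannot be stated.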
